A study of Mus musculus with 8 samples.

Results

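Transcript levels of ER stress and amino acid response genes were examined in mouse embryonic fibroblasts (MEFs) after deletion of H3f3b, a gene for the histone variant H3.3. The group was a named list of 38 genes, sorted here by role into ER chaperones and folding enzymes, transcription and degradation factors of the unfolded protein response, regulators of the ATF4 pathway, enzymes of amino acid and one-carbon metabolism, amino acid transporters and aminoacyl-tRNA ligases. Of the 38 genes, 35 had a probe on the array and 28 were detected, through 37 of the 11152 detected probes, and these 28 stood among 8488 genes tested. A probe counted as detected when its detection p-value was under 0.05 on at least 3 of 8 arrays.

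The Cre arm was made up of 4 arrays of MEFs transduced with a Cre-IRES-GFP retrovirus, and the GFP arm, its control, of 4 arrays of the same MEFs transduced with an IRES-GFP vector. Cells of both arms were C57BL6J MEFs of E12.5 embryos and carried the floxed H3f3b Fl/Fl genotype. Each arm held lines cKO1, cKO2 and pcKO1, with cKO2 arrayed as a duplicate (pairs a and b). The duplicate was averaged, so that n was 3 lines. The labels do not say that each line came from its own embryo, and in the table of detection p-values, which uses other culture names, 1 name stands for 2 of the 4 pairs, in 1 of them as a pool. P-values therefore measure the spread between these cultures. Cells were primary fibroblasts infected in culture, so the RNA of any cells that escaped deletion was measured with the rest.

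The ER folds secreted and membrane proteins with the help of chaperones and disulfide isomerases. When unfolded proteins build up there, the sensors IRE1, ATF6 and PERK act: IRE1 splices Xbp1 mRNA, ATF6 is cleaved into a transcription factor, and PERK phosphorylates the translation factor eIF2alpha. The last step, which the kinase GCN2 also carries out when amino acids run short, slows most translation but favors that of ATF4, a transcription factor that raises genes for amino acid synthesis, amino acid import and tRNA charging. In fibroblasts, which secrete collagen rich in glycine and proline, these programs also set the supply for matrix production.

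H3f3b itself, the check of the deletion, had log2 intensities of 6.73 (cKO1), 7.39 and 7.42 (cKO2) and 9.77 (pcKO1) on the Cre arrays, against 12.05, 12.42, 12.62 and 11.94 on the GFP arrays. It was lower in every Cre array, and the loss was smaller in pcKO1 (-2.17) than in cKO1 (-5.32). By limma its mean change was -4.20 ± 0.51 (SE, n = 3 lines, adjusted p = 0.188). H3f3b was detected on 3 of 4 Cre and 4 of 4 GFP arrays. Its cKO1 Cre level lay within the 5.73 to 7.22 of member probes that failed the detection filter. Background therefore limits the size of the cKO1 change and of the mean. Fibroblast markers were detected for 9 of 10 genes, with linear sums of 25534 to 41650 on Cre arrays and 29361 to 38191 on GFP arrays. In cKO1, 4 of the 9 (44.4%) were at least 1.5-fold lower in Cre cells, among them the collagens Col1a1 (-1.20) and Col1a2 (-1.15), against 7.92% of all genes, and Thy1 (0.70) was higher, against 5.53%. Endothelial and erythroid markers were detected for 0 of 4 genes each, and the macrophage list for 2 of 6 (Adgre1 and Cd14), with Ptprc and Csf1r not among the detected genes and linear sums of 267 to 625 on Cre and 221 to 709 on GFP arrays. In cKO1 both were higher in Cre cells, at 0.75 for Adgre1 and 0.66 for Cd14, while in cKO2 they were at -0.06 and -0.18 and in pcKO1 at 0.25 and -0.49. Muscle (Des and Acta1) and neural (Map2 and Nes) markers were detected for 2 of 4 genes each, and epithelial ones for 1 of 4 (Krt8). Linear sums on Cre and GFP arrays were 178 to 1791 and 190 to 2368 for muscle. They were 483 to 884 and 450 to 899 for neural genes, and 102 to 123 and 113 to 128 for Krt8. Changes in cKO1 were -0.28 (Des), -0.34 (Acta1), -0.54 (Map2), 0.45 (Nes) and -0.32 (Krt8), and in pcKO1 -0.57, -0.39, 0.77, -0.71 and 0.11. The part of these marker changes in the cKO1 results below was not tested.

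Of the 28 detected genes, 0 passed an adjusted p of 0.05 by limma in either direction, where the share over all genes was 0% lower and 0% higher. At an unadjusted p under 0.05 the count was also 0 of 28, against 3.68% of all genes, and adjusted p-values ran from 0.967 to 0.998. The values below are therefore given line by line as descriptions, since each line had 1 Cre and 1 GFP value. As a yardstick, the log2 change of a gene differed between the duplicate pairs of cKO2 by a median of 0.18 over all genes, and by 0.55 at the 95th percentile. For member probes the median was 0.12 and the maximum 0.50.

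The lines differed in how the group stood after Cre. In cKO1, 21 of 28 genes were lower in Cre than in GFP cells, against 52.4% of all genes, and the median log2 change was -0.30 (all genes -0.03). In cKO2, 15 were lower, against 48.5% of all genes, with a median of -0.02 (all genes 0.01), and in pcKO1 18 were lower, against 50.9%, with a median of -0.08 (all genes -0.01). At a limit of 1.5-fold, Trib3, Chac1, Ddit3 and Xbp1 were lower in cKO1, which is 4 of 28 or 14.3%, against 7.92% of all genes, and Atf3 was the 1 higher gene, against 5.53%. No member reached 1.5-fold in cKO2, where 0.424% of all genes were lower and 0.0707% higher by that much, nor in pcKO1, where 1.54% were lower and 1.7% higher.

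The cKO1 counts moved with the scaling of the arrays. Median scaling in place of quantile normalization shifted the median of all genes in cKO1 to -0.16 and that of the 28 genes to -0.44, with 25 lower and 9 at least 1.5-fold lower, while 13.9% of all genes then were. The median linear signal, with array means set equal, was 155 on the Cre array of cKO1, above the 131 to 148.7 of the other 7, and its part in the cKO1 changes was not tested. Atf3 lay just past 1.5-fold, and 0 members were higher by that much in cKO1 with median scaling, cyclic loess, no background correction or the deposited values, and 2 with an offset of 16. Under every scaling and correction tried, the median of the group in cKO1 lay below that of all genes.

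Across lines, 9 of 28 genes were lower in Cre cells of all 3 lines, where 13.2% of all genes were: Calr, Pdia3, Trib3, Asns, Phgdh, Shmt2, Slc7a5, Gars and Sars. Both cKO2 pairs also ran this way for Trib3, Shmt2, Slc7a5, Gars and Sars, which made 5 genes lower in all 4 pairs, against 8.21% of all genes. For Trib3 the changes outside cKO1 were only -0.11 to -0.02, at levels within the range of member probes that failed the detection filter. Cebpb and Wars were higher in all 3 lines, against 12.6% of all genes, with Wars in cKO1 (0.35) as the largest value. Their cKO2 pairs differed in sign, at -0.19 and 0.31 for Cebpb and -0.08 and 0.23 for Wars. Under all 8 other scalings, corrections, filters and probe rules Calr, Phgdh, Shmt2, Slc7a5 and Gars stayed lower in every line, whereas a line turned sign for Pdia3, Asns and Cebpb under median scaling, for Trib3 and Cebpb without any correction or normalization, and for Sars and Wars with the mean of detected probes.

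**Figure D1:**
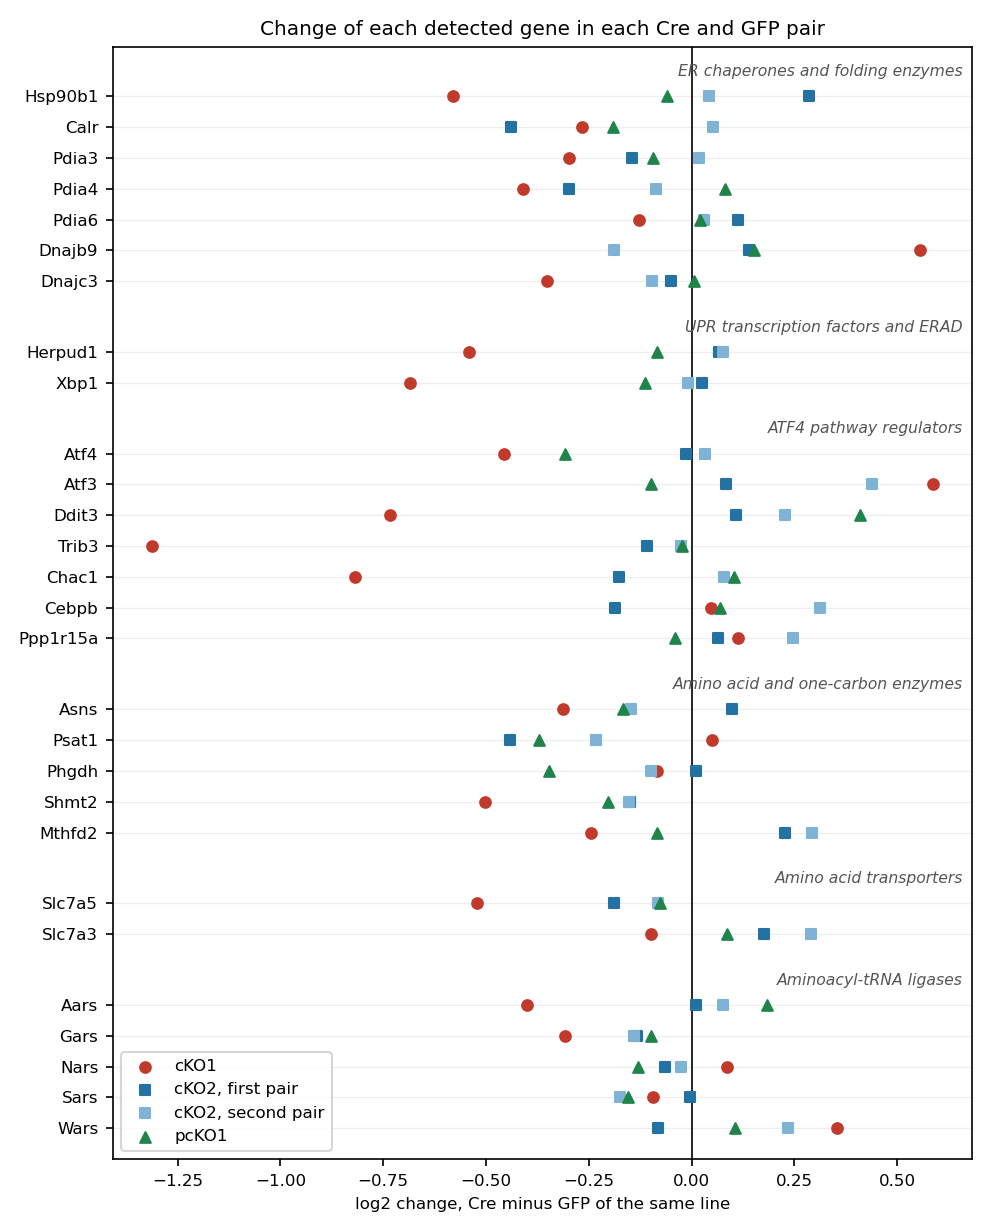
Log2 change (Cre minus GFP) of each of the 28 detected genes, grouped by role, with a point for cKO1, for each cKO2 pair and for pcKO1. The cKO1 points spread from -1.31 (Trib3) to 0.59 (Atf3), while those of cKO2 and pcKO1 run from -0.44 to 0.44.

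ER chaperones and folding enzymes are the classic output of ATF6 and XBP1. Of the 12 genes listed, 7 were detected, with median log2 changes of -0.30 (cKO1), -0.06 (cKO2) and 0.01 (pcKO1). Hsp90b1 encodes GRP94, the ER member of the HSP90 family. Its log2 intensities on the Cre arrays were 11.73 (cKO1), 12.34 and 12.25 (cKO2) and 12.23 (pcKO1), against 12.31, 12.06, 12.21 and 12.29 on the GFP arrays. Only the Cre array of cKO1 stood low, and the other 7 arrays lay between 12.06 and 12.34. The changes were -0.58, 0.28, 0.04 and -0.06, and the mean over lines was -0.16 ± 0.15 (SE, n = 3 lines, limma adjusted p = 0.967).

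Among the others of this set, the disulfide isomerases Pdia3 and Pdia4, which form and reshuffle disulfide bonds, were at -0.30 and -0.41 in cKO1. Calr, a calcium-binding lectin chaperone, was at -0.27 (cKO1), -0.19 (cKO2) and -0.19 (pcKO1), though its cKO2 pairs were at -0.44 and 0.05. Dnajc3, a co-chaperone also known as p58IPK, was at -0.35 (cKO1), -0.07 (cKO2) and 0.01 (pcKO1). Dnajb9, an HSP40 co-chaperone that is a known XBP1 target, stood apart from the rest at 0.55 in cKO1, with -0.02 in cKO2 and 0.15 in pcKO1. Pdia6 was at -0.13, 0.07 and 0.02. Hspa5, which encodes BiP, the chaperone that holds the ER sensors inactive, was not detected by its probe: it passed on 1 of 4 Cre and 1 of 4 GFP arrays, so the most used marker of ER stress gave no value here. Canx and Manf were not detected on any array, and the annotation used held no probe for Dnajb11 and Sdf2l1.

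The ER stress response element, searched as CCAAT and CCACG with 9 bases between them on both strands in the 250 bases before each RefSeq transcription start (GRCm38.p6), is the site described for ATF6. It was present in 6 of the 11 chaperone genes with a promoter sequence and in 0 of the 21 other members with one, against 0.13% of 27018 genes (0.113% of 32841 promoters). Chaperones are a known output of ATF6, so its described site in their promoters is no independent result. ER genes outside the member list were not counted apart, so the element is not shown to be particular to this group. The sites of the detected genes are shown with the element in capitals, and Hsp90b1 holds a pair of them. The sequences are given on the strand of the gene.
Hsp90b1 (chr10:86705622-86705672, minus strand): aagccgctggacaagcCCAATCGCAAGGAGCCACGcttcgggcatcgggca
Hsp90b1 (chr10:86705517-86705567, minus strand): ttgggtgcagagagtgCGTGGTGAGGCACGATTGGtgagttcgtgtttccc
Calr (chr8:84847059-84847109, minus strand): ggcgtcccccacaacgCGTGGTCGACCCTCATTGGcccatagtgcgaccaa
Dnajc3 (chr14:118937811-118937861, plus strand): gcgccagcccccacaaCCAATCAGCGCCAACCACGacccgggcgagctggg
Pdia6 (chr12:17266475-17266525, plus strand): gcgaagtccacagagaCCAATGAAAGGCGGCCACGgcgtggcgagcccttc
The 4 genes had cKO1 changes from -0.58 (Hsp90b1) to -0.13 (Pdia6), and a match is a description of the letters, not evidence of a bound factor.

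The set of response factors held Xbp1, Herpud1 and Atf6, of which Atf6 had no probe in the annotation. Xbp1 encodes the transcription factor made active by IRE1 splicing, and whether its probe tells the spliced from the unspliced form is not known from the files used here. Its log2 intensities were 10.52 (cKO1), 11.62 and 11.72 (cKO2) and 11.76 (pcKO1) on Cre arrays, against 11.21, 11.59, 11.73 and 11.88 on GFP arrays. Both cKO1 arrays were below the 6 arrays of the other lines, and within cKO1 the Cre array was at 62.2% of the GFP signal. The changes were -0.69, 0.02, -0.01 and -0.11, with a mean of -0.26 ± 0.15 (SE, n = 3 lines, limma adjusted p = 0.967).

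Herpud1, which helps to degrade misfolded ER proteins, had 2 detected probes. The brighter one was at -0.54 (cKO1), 0.07 (cKO2) and -0.08 (pcKO1), and the other at -0.93, 0.01 and 0.06. Both probes thus placed the Cre cells of cKO1 lower and differed in size, and in the other lines both stayed within 0.10 of 0. Its promoter was the only one of the 32 members with a sequence that held both ER stress element II (ATTGG and CCACG with 1 base between them, present in 0.037% of genes and 0.0304% of promoters) and the ATF4-type element TGATGNAA, which is described in the account of the ATF4 pathway. The segments are shown with each element in capitals.
Herpud1, element II (chr8:94386361-94386403, plus strand): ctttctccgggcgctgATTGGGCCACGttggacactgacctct
Herpud1, ATF4-type element (chr8:94386301-94386340, plus strand): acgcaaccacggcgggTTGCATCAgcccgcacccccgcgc

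All 7 regulators of the ATF4 pathway were detected, and they held 3 of the 4 genes that were at least 1.5-fold lower in cKO1 as well as the 1 that was higher. Their median log2 change was -0.46 (cKO1), 0.06 (cKO2) and -0.02 (pcKO1). Trib3 encodes a pseudokinase that is induced by ATF4 and restrains it. Its log2 intensities were 7.37 (cKO1), 6.88 and 6.94 (cKO2) and 6.95 (pcKO1) on Cre arrays, against 8.69, 6.99, 6.97 and 6.97 on GFP arrays. The GFP array of cKO1 stood far above the others, the Cre array of cKO1 came next, and the 6 arrays of the other lines lay within 6.88 to 6.99. Trib3 was detected on 4 of 4 Cre and 4 of 4 GFP arrays. Those 6 levels, however, fell within the 5.73 to 7.22 of member probes that failed the detection filter. The top of that range came from Slc7a11, which passed on 2 of 8 arrays. Member probes detected on no array reached 6.61 at most, not far below the 6 Trib3 levels. The low level thus limits how large a fall in cKO2 or pcKO1 could show. The Cre cells of cKO1 held 40.3% of the GFP signal, a change of -1.31, while the changes were -0.11 and -0.03 in the cKO2 pairs and -0.02 in pcKO1. The mean over lines was -0.47 ± 0.24 (SE, n = 3 lines, limma adjusted p = 0.967), and without cKO1 it was -0.045.

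Chac1 encodes an enzyme that breaks down glutathione and is an ATF4 target. Its log2 intensities were 11.11 (cKO1), 9.52 and 9.68 (cKO2) and 10.40 (pcKO1) on Cre arrays, against 11.93, 9.69, 9.60 and 10.30 on GFP arrays. As for Trib3, both cKO1 arrays lay above all 6 others and the GFP array was the higher of the pair. The changes were -0.82, -0.18, 0.08 and 0.10, with a mean of -0.25 ± 0.19 (SE, n = 3 lines, limma adjusted p = 0.967).

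Ddit3 encodes CHOP, a transcription factor tied to cell death under lasting ER stress. Its log2 intensities were 9.58 (cKO1), 9.47 and 9.54 (cKO2) and 10.06 (pcKO1) on Cre arrays, against 10.31, 9.36, 9.31 and 9.66 on GFP arrays. Here the lines ran in opposite directions, with the Cre array lower in cKO1 and higher in each other pair. The changes were -0.73, 0.11, 0.23 and 0.41, and a second, dimmer probe was at -0.35, 0.24, 0.21 and 0.41. The mean over lines was -0.05 ± 0.21 (SE, n = 3 lines, limma adjusted p = 0.994), and the difference between lines was not tested.

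Atf4 itself was at -0.46 (cKO1), 0.01 (cKO2) and -0.31 (pcKO1), as a transcript level, while ATF4 is known to be set largely by translation, which an array does not measure. Atf3, a stress-induced factor of the same family, was at 0.59 in cKO1, with log2 intensities of 7.56 on the Cre and 6.97 on the GFP array, and at 0.26 and -0.10 in cKO2 and pcKO1. Its cKO2 pairs differed, at 0.08 and 0.44, and it was detected on 2 of 4 Cre and 2 of 4 GFP arrays, as was Slc7a3, the members nearest above the limit of 3 arrays. Cebpb, a partner of ATF4 on DNA, was at 0.05, 0.06 and 0.07, and Ppp1r15a (GADD34), which guides the phosphatase that reverses eIF2alpha phosphorylation, at 0.11, 0.16 and -0.04. So the regulators did not run together in cKO1: Trib3, Chac1, Ddit3 and Atf4 were lower in Cre cells, Atf3 was higher, and Cebpb and Ppp1r15a lay within the median difference of duplicate pairs.

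**Figure D2:**
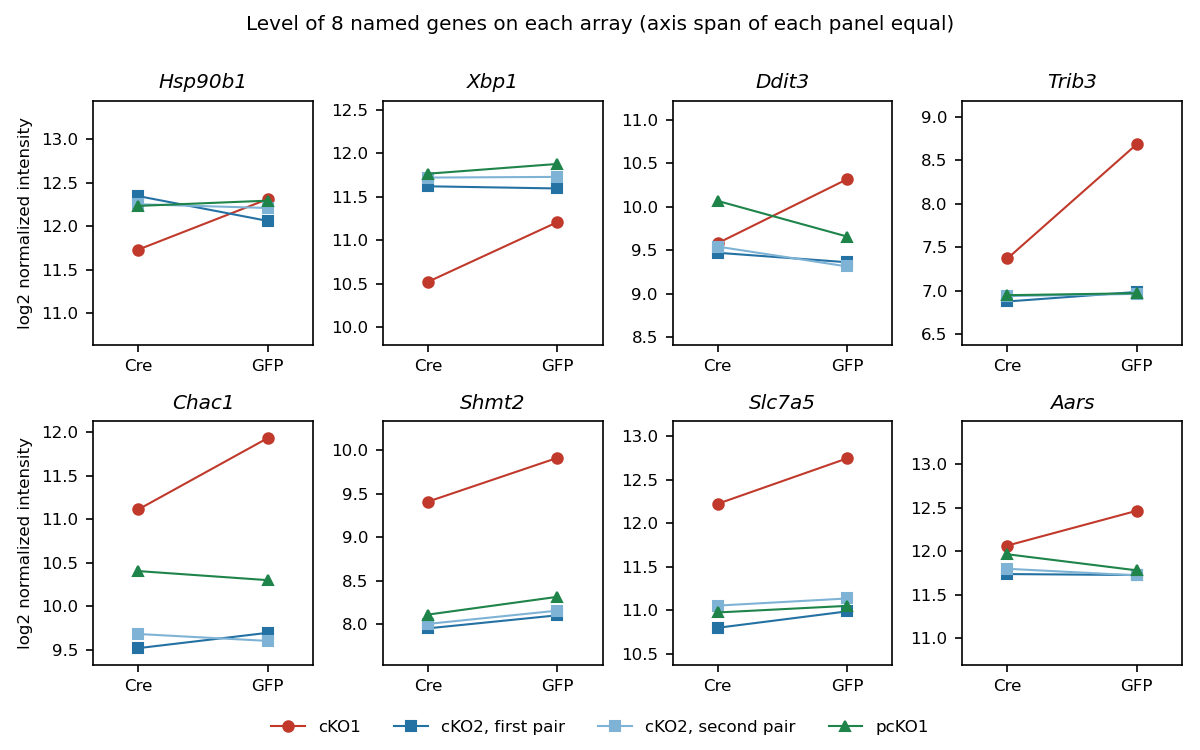
Log2 normalized intensity on each of the 8 arrays for the 8 members given in full, with Cre points left of GFP points and a line joining the pair of each culture (first and second cKO2 pair are pairs a and b). The joined cKO1 points slope apart for Trib3 (7.37 on the Cre array, 8.69 on the GFP array), while the cKO2 and pcKO1 points of that gene lie within 6.88 to 6.99. Member probes that failed the detection filter had levels of 5.73 to 7.22, with the top from Slc7a11, which passed on 2 of 8 arrays.

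The 5 detected enzymes of amino acid and one-carbon metabolism, of 6 listed, had median log2 changes of -0.24 (cKO1), -0.04 (cKO2) and -0.20 (pcKO1). Shmt2, the mitochondrial enzyme that splits serine into glycine and a one-carbon unit, had the smallest unadjusted p of all members by limma (0.0794). Its log2 intensities were 9.41 (cKO1), 7.95 and 8.0 (cKO2) and 8.11 (pcKO1) on Cre arrays, against 9.91, 8.10, 8.16 and 8.32 on GFP arrays. In every pair the Cre array was the lower, by 0.50, 0.15, 0.15 and 0.20, and both cKO1 arrays stood above the other 6, which lay within 7.95 to 8.32. The mean change was -0.29 ± 0.14 (SE, n = 3 lines, limma adjusted p = 0.967). A second, dimmer probe went the other way in cKO1 (0.12) and pcKO1 (0.10), with -0.11 in cKO2, so the probes disagreed.

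Psat1 and Phgdh, which make serine, were closest to 0 in cKO1 (0.05 and -0.08) and lower in Cre cells of pcKO1 (-0.37 and -0.35). In cKO2 they were at -0.34 and -0.04. Asns, which makes asparagine and is a standard readout of ATF4, had 3 detected probes. The brightest was at -0.31 (cKO1), -0.02 (cKO2) and -0.17 (pcKO1), with its cKO2 pairs at 0.10 and -0.15. The others were at -0.59 and -0.08 in cKO1, 0.13 and -0.27 in cKO2, and -0.23 and -0.38 in pcKO1. In cKO2 the probes thus disagreed in sign. Mthfd2, of mitochondrial folate metabolism, was at -0.24, 0.26 and -0.08. Psph, the last enzyme of serine synthesis, was not detected on any array.

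Of the 4 transporters listed, 2 were detected. Slc7a5 encodes LAT1, which imports leucine and other large neutral amino acids. Its log2 intensities were 12.23 (cKO1), 10.80 and 11.06 (cKO2) and 10.98 (pcKO1) on Cre arrays, against 12.75, 10.99, 11.14 and 11.05 on GFP arrays. Cre was the lower array in all 4 pairs, by 0.52, 0.19, 0.08 and 0.08, and cKO1 stood above both other lines in either arm. The mean change was -0.24 ± 0.13 (SE, n = 3 lines, limma adjusted p = 0.967). Slc7a3, an importer of cationic amino acids, was at -0.10 (cKO1), 0.23 (cKO2) and 0.09 (pcKO1), and was detected through 1 of its 2 probes. Slc3a2, the heavy chain that LAT1 needs, was detected on 0 of 4 Cre and 1 of 4 GFP arrays, and Slc7a11, the cystine importer, on 1 of 4 Cre and 1 of 4 GFP arrays.

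Aminoacyl-tRNA ligases join amino acids to their tRNAs. The 5 detected genes of 6 listed had medians of -0.09 (cKO1), -0.05 (cKO2) and -0.10 (pcKO1), the narrowest span between lines of the 6 role groups. Aars, the alanine ligase, had log2 intensities of 12.07 (cKO1), 11.74 and 11.80 (cKO2) and 11.97 (pcKO1) on Cre arrays, against 12.47, 11.73, 11.72 and 11.78 on GFP arrays. The Cre array was lower in cKO1 by 0.40 and higher in pcKO1 by 0.18, and in cKO2 the arms lay within 0.08. The mean change was -0.06 ± 0.14 (SE, n = 3 lines, limma adjusted p = 0.982). Gars, the glycine ligase and the brightest of the set, was lower in all 4 pairs, at -0.31, -0.13, -0.14 and -0.10. Nars, Sars and Wars, for asparagine, serine and tryptophan, were at 0.09, -0.09 and 0.35 in cKO1, and a dimmer Sars probe was at 0.49 there. Wars had 4 detected probes, and in cKO1 the 3 dimmer ones ran from -0.40 to -0.02. Yars, for tyrosine, was not detected on any array.

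The ATF4-type element TGATGNAA, known as the amino acid response or CARE element, is bound by ATF4 with C/EBP partners. It was present in the 250 bases before the start in 7 of 32 members with a promoter sequence, against 3.9% of 27018 genes (3.45% of all promoters), and in 6 of the 24 detected ones. Apart from Herpud1, given with its element II, these were Atf3, Chac1, Asns, Aars and Gars, which span the regulators, the enzymes and the ligases. The remaining member with the element was the transporter Slc7a11, which was not detected. Of the detected transporters, 0 had a promoter sequence, so Slc7a5 and Slc7a3 were not searched. They are printed on the strand of the gene, so that an element on the opposite strand reads reversed, and the capitals mark it.
Chac1 (chr2:119351033-119351072, plus strand): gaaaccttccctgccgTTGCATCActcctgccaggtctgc
Atf3 (chr1:191183420-191183459, minus strand): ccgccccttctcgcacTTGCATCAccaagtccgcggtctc
Asns (chr6:7693210-7693248, minus strand): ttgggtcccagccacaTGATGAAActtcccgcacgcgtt
Aars (chr8:111033714-111033753, plus strand): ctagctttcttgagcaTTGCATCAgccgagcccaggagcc
Gars (chr6:55037955-55037994, plus strand): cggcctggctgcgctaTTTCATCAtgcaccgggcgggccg
These genes did not share a direction in cKO1, where Chac1 was at -0.82, Asns at -0.31, Aars at -0.40, Gars at -0.31 and Atf3 at 0.59. No match in Trib3, Psat1 or Shmt2 says only that these letters are not in this window.

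**Figure D3:**
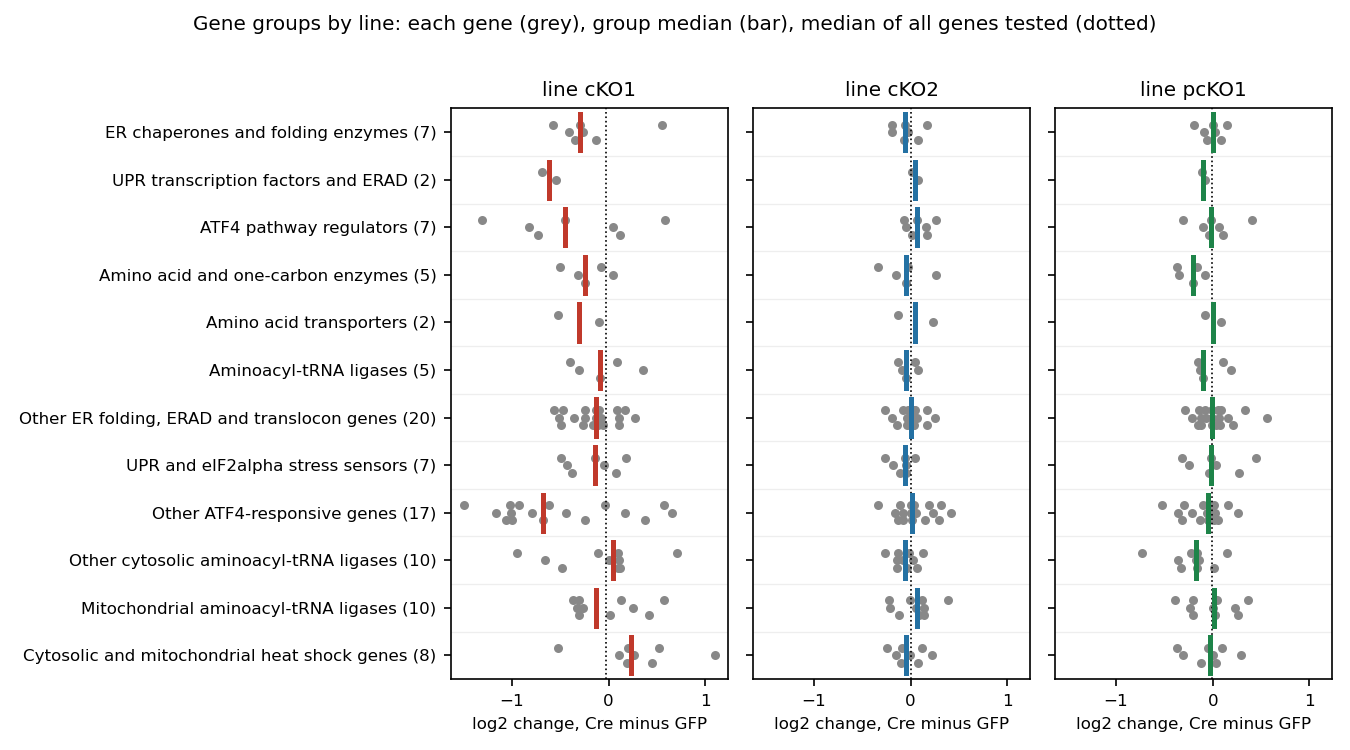
Log2 change (Cre minus GFP) by line for the 6 role groups and the comparison lists, with a grey point for each gene, a bar for the group median and a dotted line for the median of all 8488 genes. The cKO1 medians reach -0.61 for the response factors and -0.68 for the other ATF4-responsive genes, and those of cKO2 and pcKO1 lie between -0.20 and 0.07.

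Other genes of the same pathways were counted from lists chosen for their role, with earlier results of these data known. Their counts are descriptions and no independent support. Of 25 other ATF4-responsive genes, 17 were detected, with median changes of -0.68 (cKO1), 0.02 (cKO2) and -0.05 (pcKO1). In cKO1, 13 of the 17 were lower in Cre cells, 10 (58.8%) by at least 1.5-fold and 1 higher by as much, against 7.92% and 5.53% of all genes. Aldh1l2, a mitochondrial folate enzyme, had log2 intensities of 9.05 (cKO1), 8.92 and 8.76 (cKO2) and 8.69 (pcKO1) on Cre arrays, against 10.54, 8.95, 8.88 and 8.78 on GFP arrays. As for Trib3, the GFP array of cKO1 stood well above the other 7, and its Cre array, next in level, held 35.4% of that signal. Slc6a9, the glycine transporter GLYT1, was at -1.17 (cKO1), -0.08 (cKO2) and -0.05 (pcKO1). By limma 0 of the 17 passed the adjusted threshold. At an unadjusted p under 0.05 there were 2 of 17, against 3.68% of all genes, both named after their values were seen. They were Bcat1, which starts the breakdown of branched-chain amino acids (-0.24, -0.34 and -0.52 in cKO1, cKO2 and pcKO1), and Cebpg, a C/EBP partner of ATF4 (-0.44, -0.13 and -0.36). Cebpg was detected on 0 of 4 Cre and 3 of 4 GFP arrays, so its Cre level was not above background. It passed the detection filter through the GFP arm alone, so its p-value is not read as a result. Without correction or normalization its changes were -0.07, -0.12 and -0.16.

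The ER and sensor lists stood closer to all genes. Other folding, degradation and translocon genes of the ER, 20 of 28 detected, had medians of -0.13 (cKO1), 0.01 (cKO2) and -0.01 (pcKO1). In cKO1, 0 of them were 1.5-fold apart, where 7.92% of all genes were lower and 5.53% higher by that much. Sensors of the unfolded protein response and eIF2alpha kinases, 7 of 11 detected, had medians of -0.15, -0.06 and -0.01. Creb3l1, an ER-bound factor of the ATF6 type that was named after its value was seen, was at -0.49, -0.27 and -0.24. It was the 1 sensor of 7 with an unadjusted p under 0.05 by limma, against 3.68% of all genes. Its log2 intensities were 6.07 to 7.10 on Cre and 6.55 to 7.37 on GFP arrays, and it was detected on 3 of 4 arrays of each arm. The lowest levels were those of cKO1 (6.07 Cre and 6.55 GFP), within the 5.73 to 7.22 of member probes that failed the detection filter. Background thus limits the cKO1 change of Creb3l1 and the p-value it feeds. The 10 other cytosolic ligases of 14 listed had medians of 0.05, -0.06 and -0.17. Among them Eprs, which charges both glutamate and proline tRNAs, was at -0.95 (cKO1), -0.01 (cKO2) and -0.73 (pcKO1), with its cKO2 pairs at -0.32 and 0.30. It was the 1 gene of these 10 with an unadjusted p under 0.05 (0.0175 by limma, adjusted p = 0.967), against 3.68% of all genes. Its mean of -0.56 became -0.30 with the mean of detected probes. Mitochondrial ligases, 10 of 17 detected, had medians of -0.13, 0.07 and 0.02.

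The lines also differed in the level of these genes without Cre. On the GFP arrays, cKO1 was the highest of the 3 lines for 20 of 28 members (71.4%), against 36.2% of all genes, and its log2 intensity lay above the mean of the other lines by a median of 0.59 (all genes 0.01). On the Cre arrays the median was 0.38 (all genes -0.03). Both cKO1 arrays were above all 6 arrays of the other lines for 15 of the 28 genes, against 19.8% of all genes, among them all 5 enzymes and both transporters. With 1 GFP culture per line, this is a description of these cultures, with no test.

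The excess of cKO1 differed among the role groups. The enzymes were above the other lines by a median of 1.34 in Cre and 1.42 in GFP cells, and the transporters by 1.20 and 1.54. The regulators stood 0.44 above in Cre and 0.82 above in GFP cells, the ligases 0.32 and 0.44, and the chaperones were at -0.19 and 0.10. For single genes the excess was 0.44 in Cre and 1.71 in GFP cells for Trib3, 1.11 and 1.96 for Chac1, and -0.20 and 0.82 for Ddit3, whereas Psat1 was at 1.82 and 1.42. Xbp1 lay below the other lines in both arms, by -1.19 in Cre and -0.56 in GFP cells. The line with the lowest median change of the regulators, cKO1, also had the highest GFP level for 5 of the 7, against 36.2% of all genes. The enzymes were nearly as high in its Cre as in its GFP cells. A fold change between arms and the GFP level share the GFP array, so the 2 are not independent measures.

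**Figure D4:**
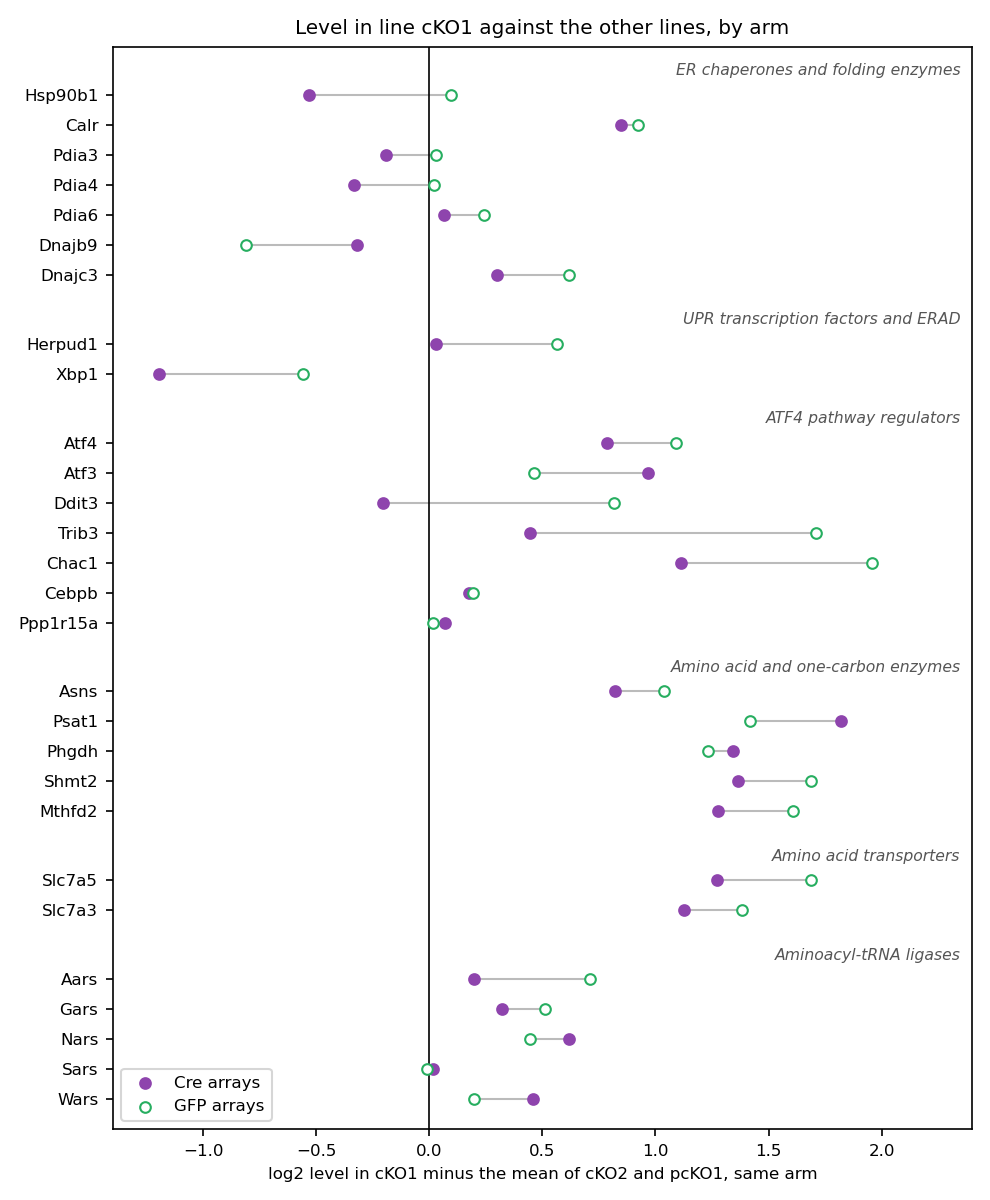
Log2 intensity of cKO1 minus the mean of cKO2 and pcKO1 for each of the 28 genes, with the Cre point and the GFP point of each gene on 1 row. The enzymes and transporters lie between 0.82 and 1.82 in both arms, while Trib3 is at 0.44 in Cre and 1.71 in GFP cells.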

How the data were processed

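RNA was amplified, biotin-labeled and hybridized to 1-color Illumina MouseRef-8 arrays. The authors deposited average bead intensity from GenomeStudio, which in the table named by sample is scaled to the same mean on each array. Detection p-values were deposited in a second table whose columns name the arm and a culture name that the labels do not use, so no line was assigned and only these were taken from it, and 9741 to 10888 probes were detected on Cre arrays and 10134 to 10580 on GFP arrays. In R 4.3.3 with limma 3.58.1 the intensities of 25697 probes were corrected by normexp (offset 50) and quantile normalized, then taken to log2. The brightest detected probe stood for a gene. The methods speak of analytical duplicates for the conditional samples without naming a line. Only cKO2 has repeated arrays by its labels, so these were taken as the duplicates and averaged. Cre was compared with GFP with line as a block (eBayes with an intensity trend, Benjamini-Hochberg, two-sided, 2 residual degrees of freedom). The labels pair the arms by line, and the Cre and GFP deviations of a line from their arm means had correlations across genes of 0.818 (cKO1), 0.919 (cKO2) and 0.749 (pcKO1). The script was tested on simulated data.

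Members, groups and comparison lists were chosen with earlier results of these data known. Values on every array are given for members with the same sign in all pairs and a mean of at least 0.3 in size, the largest change of a role group in any line, an unadjusted p under 0.05, or the 3 widest spreads between lines, and comparison genes are named at a mean of at least 0.4 with 1 sign. The number of arrays limits the precision. Promoters are those of RefSeq (GRCm38.p6), matched by symbol.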

Additional observations from a re-analysis of the deposited data

Results flagged for a closer look

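In several role groups the median, and in several genes every value, of 1 line lay on the other side of 0 from that of another line. These differences between lines were not tested. They are given as the change in the first line minus that in the second. The chaperones differed by -0.30 and the transporters by -0.32 between cKO1 and pcKO1, in their medians, though single genes of both groups did not follow (Dnajb9 was at 0.55 in cKO1, and Slc7a5 at -0.08 in pcKO1). The medians of the response factors Xbp1 and Herpud1 differed by -0.65 between cKO1 and cKO2 and by 0.14 between cKO2 and pcKO1. Hsp90b1 differed by -0.74 between cKO1 and cKO2 and by 0.22 between cKO2 and pcKO1. Ddit3 differed by -0.90 between cKO1 and cKO2 and by -1.14 between cKO1 and pcKO1. Chac1 differed by -0.92 between cKO1 and pcKO1, and Aars by -0.44 between cKO1 and cKO2 and by -0.58 between cKO1 and pcKO1. Only cKO2 had a repeated pair, so the sign in cKO1 and in pcKO1 rests on 1 Cre and 1 GFP array each.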

How the results depend on the processing

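The count of all genes past the adjusted threshold was 0 in each direction and moved in some settings: lower genes numbered 1 with median scaling, 2 in the deposited values as they stand, 1 with no filter and 4 with the duplicates as separate pairs, and higher genes 1 in the deposited values and 1 with separate pairs. Leaving out 1 line or duplicate pair gave 0 to 61 lower and 0 to 39 higher genes, the most without cKO1, with 1 residual degree of freedom for 2 lines. Median scaling moved the ligase median to -0.12, the sensor median to -0.11 and the count of members at least 1.5-fold lower in cKO1 to 9, and leave-one-out gave -0.11 to -0.046 for ligases and -0.10 to -0.027 for sensors. Without cKO1 the median change came to -0.039 for all members, -0.033 for chaperones, -0.029 for response factors, 0.058 for ATF4 regulators, 0.027 for transporters and 0.0014 for the other ATF4-responsive genes, against -0.15, -0.15, -0.22, -0.05, -0.09 and -0.27 with all lines. Leave-one-out values ran from -0.32 to 0.052 for Hsp90b1, from -0.28 to 0.29 for Ddit3, from -0.43 to 0.028 for Chac1 and from -0.18 to 0.11 for Aars, each positive only without cKO1, the line with the low values. Ddit3 also turned with the mean of its probes (0.022), which brings in the dimmer probe with a mean change of 0.096. It turned with separate pairs as well (0.0027), where both cKO2 pairs, each positive, count. Aldh1l2 passed without pcKO1 (-0.79). Without the replicate block 0 genes passed and the members' median was -0.15, as with it. Both arms hold the same 3 lines, so the block cannot move a mean change, and no conclusion on the pairing is drawn. No slide was given in the files used, so a slide block was not run, and neqc was not run because the second table's signal columns name no line. Precision is limited by 3 lines and by probes near background: 7 members with a probe were not detected and have no usable value.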

Other observations

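Heat shock genes of the cytosol and mitochondria, which answer unfolded proteins outside the ER, were counted as a list outside the ER. Of the 8 detected genes of 12 listed, 7 were higher in Cre than in GFP cells of cKO1, against 47.5% of all genes, with a median log2 change of 0.23. The ER chaperones had a median of -0.30 there, and the difference between the lists was not tested. Hspb1, a small heat shock protein, was at 1.10 and the mitochondrial chaperonins Hspd1 and Hspe1 at 0.52 and 0.45, and Bag3, a co-chaperone of HSP70, was at -0.52. In cKO2 and pcKO1 the list medians were -0.05 and -0.03, and Hspd1 and Hspe1 were at -0.31 and -0.37 in pcKO1. By limma 0 of the 8 passed the adjusted threshold and 0 had an unadjusted p under 0.05.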
